A study of Mus musculus with 6 samples.

Results

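The 36 genes described here encode molecular chaperones and their partners: 22 of the endoplasmic reticulum (ER), 12 of the cytosol and 2 of mitochondria. They were chosen by name, as heat shock proteins and genes of ER folding and the unfolded protein response, and each was found by its symbol among the 55335 genes of the files. The mitochondrial chaperonin genes Hspd1 and Hspe1 came with the heat shock proteins and are kept apart from the cytosolic members below. Retinas came from C57BL/6 mice aged 10 weeks, labelled wild type, and material bound by an anti-HA antibody was collected on beads before its RNA was sequenced. The labels name retinal ganglion cells, the neurons that send axons into the optic nerve, as the cell type, but not the protein that carried the HA tag. A naive group of 3 libraries was set against 3 libraries of the SOHU group, a mouse model in which silicone oil in the front chamber of the eye raises eye pressure, taken 1 week after injection. The labels do not say what the naive eyes received, nor whether each library is a separate animal or a pool, so p-values measure the spread between these libraries, which may be technical.

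Chaperones bind unfolded or partly folded proteins and keep them from aggregating until they fold, are assembled or are degraded. In the cytosol the Hsp70 and Hsp90 machines do most of this work; some of their genes are always on, and others are switched on by the heat shock factor HSF1 when misfolded protein builds up. In the ER, the sensors IRE1, PERK and ATF6 detect unfolded protein and raise the production of lumenal chaperones, disulfide isomerases and degradation factors, a programme called the unfolded protein response. Neurons with long axons, such as ganglion cells, have a large load of protein to fold and transport.

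Totals were 21691354 to 26824919 counted reads per library. Levels are CPM, reads scaled to library size with TMM (a correction for library composition), or RPKM, the same per kilobase of exon, where genes are compared with each other. Each change is the log2 fold change from naive to SOHU in edgeR's quasi-likelihood test of 17687 genes, and the threshold was 0.05 for the p adjusted by Benjamini-Hochberg. Of the 14 ganglion cell markers, 13 were lower in SOHU, with a median log2 change of -1.12, and their summed share of reads was 0.398 to 0.653% in naive and 0.192 to 0.281% in SOHU libraries. Of 13 Müller glia and astrocyte markers 9 were higher, and their share was 1.35 to 1.89% against 2.77 to 4.98%. Rod markers made up 0.613 to 0.745% and 0.567 to 0.856%, and none of the 12 passed in edgeR (1 at an unadjusted p under 0.05, and 1 higher in DESeq2 and 0 in limma-voom). Microglial markers, 4 of 11 of which rose, made up 0.0025 to 0.0057% and 0.00678 to 0.0154%. The pull-down thus held RNA of several cell types in each group, and the part of these shifts in the changes of the chaperone genes was not tested. In such samples fewer cells of a type and less RNA per cell cannot be told apart.

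Both programmes are known to act through short promoter elements, and the elements of some members are shown here. RefSeq promoters (GRCm38.p6, from 250 bases before the start of transcription to 50 bases after) were at hand for 30 of the 36 members. The ER stress element, bound by NF-Y and ATF6, is a CCAAT box and a CCACG box 9 bases apart. Searched on both strands, it was present in 8 of 19 ER members, in 0 of 9 cytosolic members and in 0.119% of all 32851 promoters. The heat shock element, bound by HSF1, was searched on both strands as a run of alternating GAA and TTC triplets with 2 bases between them. An exact run was present in 2 of 9 cytosolic members (Chordc1 and Hsph1), in both mitochondrial members, in 0 of 19 ER members and in 0.603% of all promoters. The inducible genes Hspa1a, Hspa1b, Dnajb1 and Hspb1 had no exact run, and imperfect runs were not searched. A match describes letters in this window and is not evidence of binding. Only these exact forms were searched, so a promoter without a match may hold a variant of the element. The sequences are the elements of 4 ER members and the element held by promoters of both Hspd1 and Hspe1. Each is on the strand of the gene named, with the boxes or triplet run in capitals. Another promoter of Hspd1 had no match. Calr, Creld2 and the nearer of the elements of Hsp90b1 carry the ER stress element in reverse orientation.
Hspa5, chr2:34772005-34772063, plus strand: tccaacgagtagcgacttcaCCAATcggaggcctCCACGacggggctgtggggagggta
Calr, chr8:84847055-84847113, minus strand: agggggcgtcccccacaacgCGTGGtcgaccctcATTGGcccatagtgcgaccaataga
Hsp90b1, farther element, chr10:86705618-86705676, minus strand: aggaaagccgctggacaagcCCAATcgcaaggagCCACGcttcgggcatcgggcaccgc
Hsp90b1, nearer element, chr10:86705513-86705571, minus strand: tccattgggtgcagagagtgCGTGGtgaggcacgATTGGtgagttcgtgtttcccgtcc
Creld2, chr15:88819500-88819558, plus strand: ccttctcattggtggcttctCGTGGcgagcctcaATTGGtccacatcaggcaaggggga
Hspe1, chr1:55088039-55088096, plus strand: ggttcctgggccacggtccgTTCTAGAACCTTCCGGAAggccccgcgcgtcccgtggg

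In the cytosol, the constitutive gene Hspa8 and the inducible genes Hsp90aa1 and Hspb8 fell in SOHU, while the inducible genes Bag3 and Hspb1 rose. Among the ER genes 1 fell and none rose. Of all 36 members, 2 rose and 4 fell. Across all genes tested 8.02% rose and 5.93% fell, 13.9% in either direction. By compartment, 2 of 12 cytosolic members rose and 3 fell, 1 of 22 ER members fell, 0 of 22 ER members rose in edgeR (2 at an unadjusted p under 0.05, and 0 in DESeq2 and limma-voom), and 0 of 2 mitochondrial members passed in edgeR (1 at an unadjusted p under 0.05, and 1 lower in DESeq2 and 0 in limma-voom). The median log2 change was -0.19 for the cytosolic members, 0.0044 for the ER members and -0.23 for the mitochondrial ones, beside 0.014 for all genes. The groups did not overlap in 9 of the 12 cytosolic and 7 of the 22 ER members, beside 39.0% of all genes. All 22 ER members had a change within 1.5-fold, as did 69.6% of all genes, many of which have fewer reads. These counts and medians are descriptions, and the difference between compartments was not tested. Every one of the 36 genes passed the filter on low counts.

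**Figure D1:**
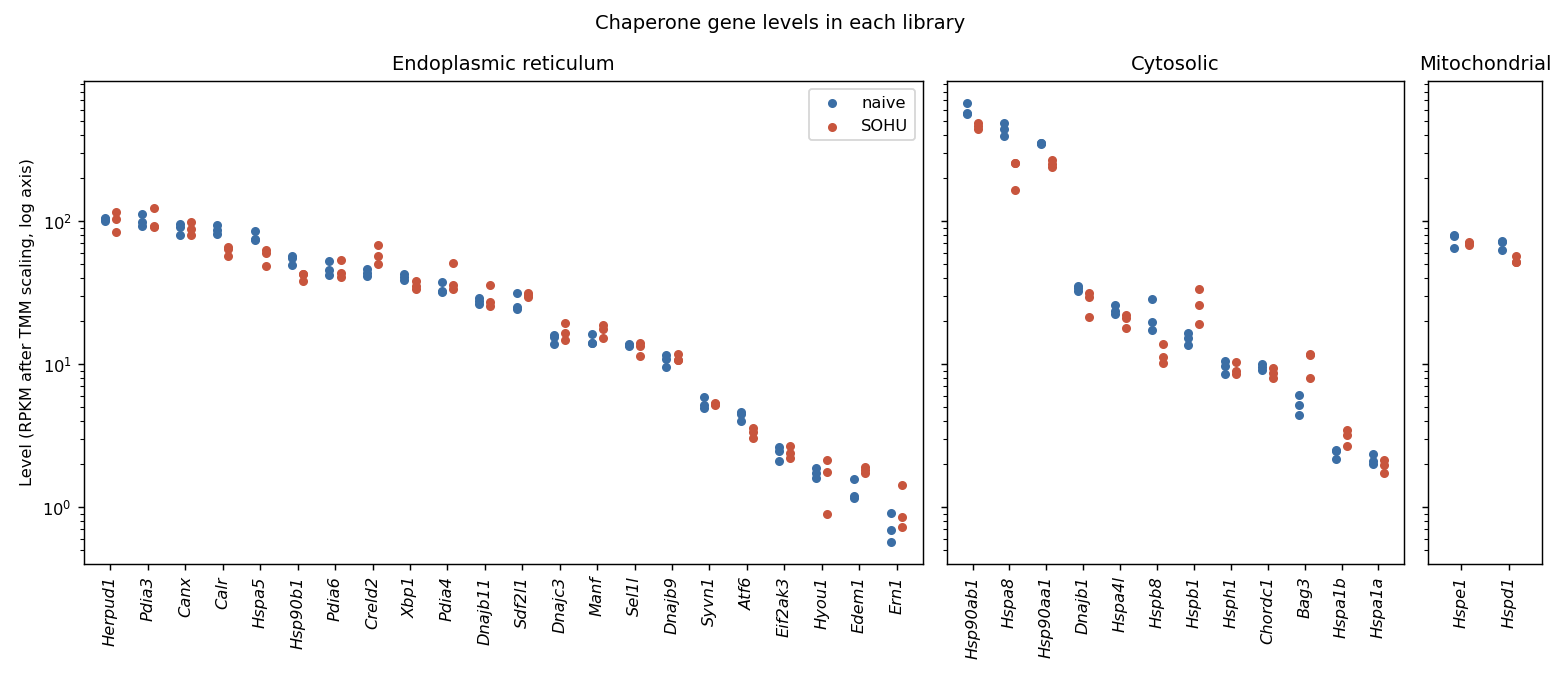
Level of each chaperone gene in RPKM (log axis) in the 3 naive (blue) and 3 SOHU (red) libraries, 1 point per library, with genes ordered by naive level within each compartment. Hsp90ab1, Hspa8 and Hsp90aa1 stand above all other members, and the SOHU points of Hspa8, Hsp90aa1 and Hspb8 lie below and those of Bag3 and Hspb1 above all naive points.

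Hspa8 encodes Hsc70, the constitutive Hsp70 that folds new proteins and strips clathrin from vesicles (ENSMUSG00000015656.17, chr9:40800984-40810087 in mm10, plus strand). It stood at 2081, 1881 and 1677 CPM in naive replicates 1 to 3 and at 1095, 709.6 and 1091 CPM in SOHU replicates 1 to 3. All SOHU libraries lay below all naive ones, and SOHU replicate 2 was the lowest. It fell 1.95-fold, the most of the 4 members that fell (log2 change -0.96, SE 0.19, 95% interval -1.38 to -0.54, edgeR adjusted p = 0.0162). For comparison, log2 changes of the 14 ganglion cell markers ran from -1.44 to -0.76.

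The stress-inducible Hsp70 genes Hspa1a and Hspa1b were present at a low level. Hspa1a had 181, 139 and 142 reads (naive) against 141, 141 and 126 (SOHU), and Hspa1b 157, 163 and 156 against 235, 199 and 184. The SOHU libraries were above the naive ones for Hspa1b and overlapped them for Hspa1a. Neither passed (log2 change -0.15, interval -0.62 to 0.31, edgeR adjusted p = 0.658 for Hspa1a; 0.39, interval -0.06 to 0.84, adjusted p = 0.217 for Hspa1b). Their transcripts are 99.2% identical over 2201 bases, so the division of reads between them is uncertain and their sum is the safer value. Set against Hspa8 in the same library, per kilobase, the summed pair amounted to 0.00931, 0.0103 and 0.0117 in naive and 0.0214, 0.0322 and 0.0173 in SOHU libraries. On the log2 scale that ratio was 1.14 higher in SOHU, with no overlap (exact permutation test, two-sided, p = 0.1, the smallest that 3 against 3 libraries allow, and 0.25 adjusted over 5 ratios). Hspa8, below the line of this ratio, fell, and neither gene above the line passed.

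The partners of Hsp70 went different ways. Bag3, a nucleotide exchange factor that hands Hsp70 clients to autophagy (ENSMUSG00000030847.8, chr7:128523616-128546981 in mm10, plus strand), stood at 13.3, 15.5 and 11.3 CPM in naive and 30.04, 29.7 and 20.6 CPM in SOHU libraries. Each SOHU library was above each naive one, with replicate 3 the nearest. It rose by 1.003 on the log2 scale (SE 0.20, interval 0.55 to 1.45, edgeR adjusted p = 0.0168). Dnajb1, the Hsp40 that delivers clients to Hsp70, had 112.4, 104.4 and 108.6 CPM in naive and 100.8, 68.4 and 94.2 CPM in SOHU libraries, without overlap and again lowest in SOHU replicate 2, and did not pass (-0.30, adjusted p = 0.224). The Hsp110 genes Hsph1 and Hspa4l, whose products also exchange nucleotide on Hsp70, did not pass either, with log2 changes of -0.04 and -0.23 (edgeR adjusted p of 0.859 and 0.266).

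Hsp90 matures kinases, receptors and other clients, and it is encoded in the cytosol by an inducible gene, Hsp90aa1, and a constitutive one, Hsp90ab1. Hsp90aa1 (ENSMUSG00000021270.13, chr12:110690605-110702728 in mm10, minus strand) had 1347, 1377 and 1371 CPM in naive and 937.9, 987.5 and 1040.0 CPM in SOHU libraries. The groups were far apart relative to their spread, and Hsp90aa1 passed (log2 change -0.47, SE 0.12, interval -0.74 to -0.19, edgeR adjusted p = 0.038). Hsp90ab1 had 2001, 1712 and 1672 CPM against 1320, 1376 and 1440 CPM and did not pass (-0.38, SE 0.14, interval -0.69 to -0.08, edgeR adjusted p = 0.0896), although all its SOHU libraries lay below the naive ones. The ratio of Hsp90aa1 to Hsp90ab1 per kilobase was 0.514, 0.614 and 0.625 in naive and 0.542, 0.547 and 0.551 in SOHU libraries. These ranges overlapped, and the log2 difference of -0.09 had an exact permutation p of 0.4. The ratios of the SOHU libraries lay inside the wider naive range. Chordc1, an Hsp90 cochaperone, had a log2 change of -0.14 (edgeR adjusted p = 0.496).

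Per kilobase, Hsp90ab1 was the most abundant member in every library, at 557.6 to 667.3 RPKM in naive and 440.1 to 480.2 RPKM in SOHU. Hspa8 ranked second in the naive libraries, at 389.9 to 483.8 RPKM beside 342.7 to 350.2 for Hsp90aa1. In SOHU, Hspa8 had 254.6, 165 and 253.7 RPKM and Hsp90aa1 238.6, 251.2 and 264.5 RPKM, so that the levels of these genes crossed in replicates 2 and 3. Together Hspa8, Hsp90ab1 and Hsp90aa1 held 89.1 to 89.2% of the reads of the 12 cytosolic members in naive and 84.5 to 86.7% in SOHU libraries.

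The small heat shock protein genes, whose products hold unfolded protein without using ATP, moved in opposite directions. Hspb1 (Hsp25 in mice, also known for rising in reactive glia and in injured neurons; ENSMUSG00000004951.10, chr5:135887919-135889563 in mm10, plus strand) had 14.0, 16.9 and 15.8 CPM in naive and 26.7, 34.7 and 19.6 CPM in SOHU libraries. It was above the naive range in each SOHU library, with SOHU replicate 2 the highest, and rose 1.73-fold (log2 change 0.79, SE 0.21, interval 0.31 to 1.27, edgeR adjusted p = 0.039). Hspb8, which works in a complex with Bag3 (ENSMUSG00000041548.4, chr5:116408491-116422864 in mm10, minus strand), had 55.9, 33.8 and 38.2 CPM in naive and 19.9, 21.7 and 26.9 CPM in SOHU libraries. It fell 1.87-fold (log2 change -0.90, SE 0.21, interval -1.37 to -0.43, edgeR adjusted p = 0.0255), and naive replicate 1 was well above the other naive libraries. The proteins Bag3 and Hspb8 act together, whereas their genes differed in direction here. Naive replicate 1 also had the largest share of ganglion cell marker reads, 0.653% against 0.398 and 0.470% in the other naive libraries. The part of that in Hspb8 was not tested.

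The mitochondrial chaperonin Hsp60 and its lid Hsp10 are encoded by Hspd1 and Hspe1. These neighbours are read in opposite directions, and promoters of both hold the element shown above. Hspd1 had 188.5, 191.7 and 164.6 CPM in naive and 135.9, 150.2 and 136.4 CPM in SOHU libraries, with no overlap, and did not pass (log2 change -0.37, interval -0.64 to -0.09, edgeR adjusted p = 0.0758). Hspe1 had 118.4, 96.0 and 114.8 CPM against 105.8, 100.3 and 103.4 CPM, and its groups overlapped (-0.09, edgeR adjusted p = 0.679). The ratio of Hspe1 to Hspd1 was 1.13, 0.898 and 1.25 in naive and 1.40, 1.20 and 1.36 in SOHU libraries (exact permutation p = 0.2). The annotated exons of these genes share 112 bases on opposite strands, and with no strand setting given, reads there cannot be assigned with certainty.

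**Figure D2:**
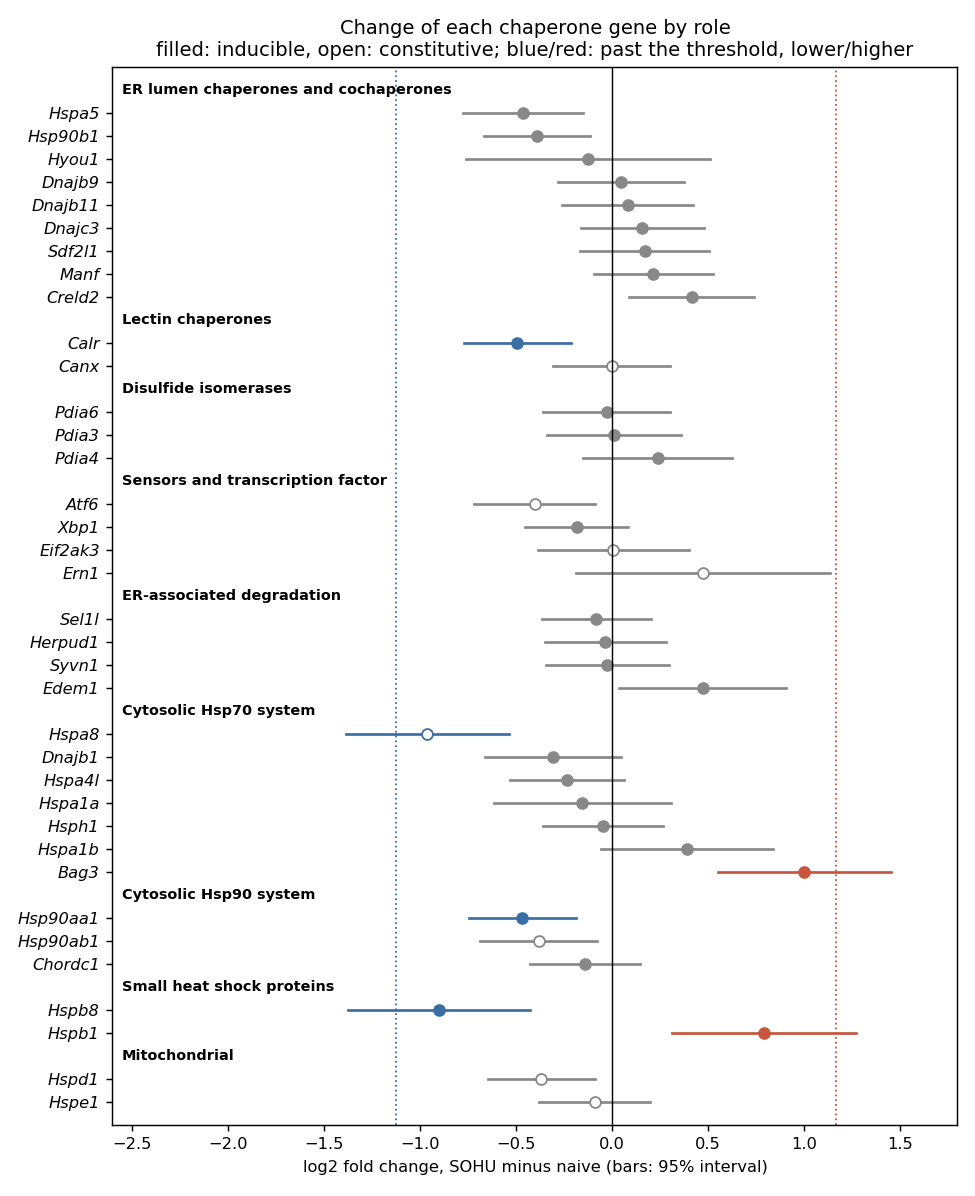
Log2 fold change (SOHU minus naive) with its 95% interval for each of the 36 genes, grouped by role; filled points are inducible and open points constitutive members, and blue and red mark genes past the threshold. The dotted lines are the median changes of the ganglion cell markers (blue, -1.12) and of the Müller glia and astrocyte markers (red, 1.17); Hspa8 and Hspb8 lie near the former and Bag3 near the latter.

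In the ER, the lumenal Hsp70 BiP and the lumenal Hsp90 Grp94, encoded by Hspa5 and Hsp90b1, are the central chaperones and standard readouts of the unfolded protein response. Hspa5 had 310.9, 360.5 and 318.7 CPM in naive and 263.1, 203.7 and 251.6 CPM in SOHU libraries. All SOHU libraries lay below all naive ones, but the gene missed the threshold (log2 change -0.46, SE 0.14, interval -0.78 to -0.15, edgeR adjusted p = 0.0555). Hsp90b1 had 198.8, 229.2 and 223.2 CPM against 154.1, 171.4 and 172.4 CPM and also missed it with no overlap (-0.39, SE 0.12, interval -0.66 to -0.11, edgeR adjusted p = 0.0639). Both intervals lie below 0. The tools differed on some of these genes: DESeq2 gave an adjusted p of 0.0209 for Hspa5 and 0.0285 for Hsp90b1, as well as 0.0358 for Hsp90ab1 and 0.049 for Hspd1, whereas limma-voom gave 0.0521, 0.0619, 0.0707 and 0.0747 for the same genes, all above the threshold.

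Against the cytosolic partner of the same family, the ER genes differed. The ratio of Hspa5 to Hspa8 per kilobase was 0.152, 0.195 and 0.193 in naive and 0.244, 0.292 and 0.235 in SOHU libraries. It was 0.52 higher on the log2 scale, without overlap (exact permutation p = 0.1, the smallest possible, and 0.25 adjusted over 5 ratios). The ratio of Hsp90b1 to Hsp90ab1 was 0.0739, 0.0996 and 0.0993 against 0.0868, 0.0927 and 0.0891, a log2 difference of -0.0092 (exact permutation p = 1).

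**Figure D3:**
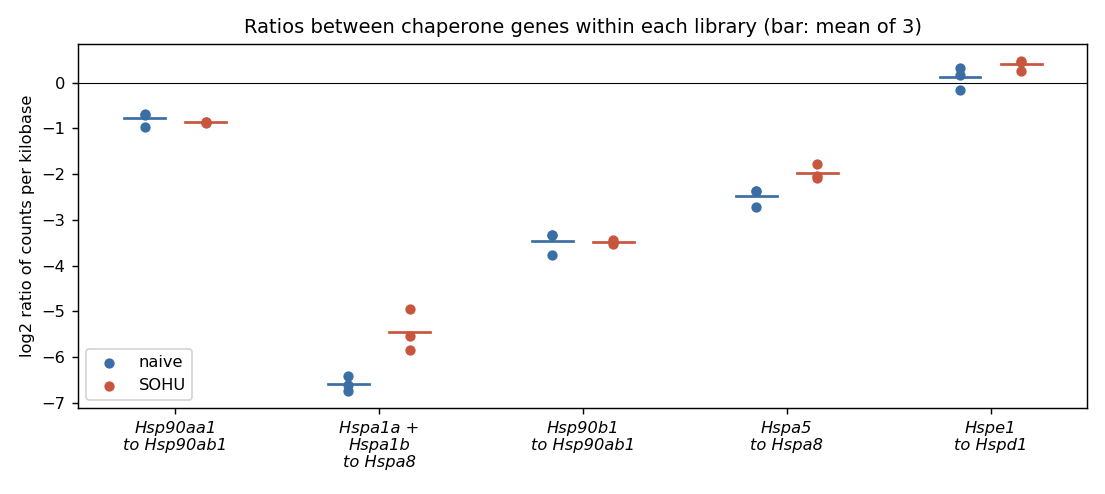
Log2 ratio of counts per kilobase between chaperone genes, within each naive (blue) and SOHU (red) library, with bars at the group means. The ratios to Hspa8 lie higher in all SOHU libraries than in all naive ones, and the other ratios overlap between the groups.

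The lectin chaperones calreticulin and calnexin, which fold glycoproteins in the ER, parted. Calr, the soluble one (ENSMUSG00000003814.8, chr8:84841850-84846934 in mm10, minus strand), had 234.7, 271.1 and 250.1 CPM in naive and 183, 165.1 and 189.8 CPM in SOHU libraries. It was the 1 ER member past the threshold (log2 change -0.49, SE 0.12, interval -0.77 to -0.21, edgeR adjusted p = 0.0323), a 1.40-fold fall without overlap. Canx, its membrane-bound relative, had 448.5, 424 and 373.3 CPM against 374.1, 458.6 and 413 CPM, with a log2 change of -0.0002 (interval -0.30 to 0.30). Both promoters hold an ER stress element. The disulfide isomerase genes Pdia3, which works with calreticulin and calnexin, Pdia4 and Pdia6 had log2 changes of 0.01, 0.24 and -0.03, and none passed (edgeR adjusted p of 0.380 to 0.970; 0 at an unadjusted p under 0.05). In these isomerase genes SOHU replicate 1 was the highest SOHU library, for instance at 386.3 CPM for Pdia3 against 282.9 and 289.1 CPM in the others. Over all 22 ER members, however, it was the highest SOHU library in 9 and the lowest in 7. SOHU replicate 1 also had the largest share of Müller glia and astrocyte marker reads, 4.98% against 3.48 and 2.77%, and the part of that in these levels was not tested.

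None of the other lumenal factors passed in edgeR (1 at an unadjusted p under 0.05), DESeq2 or limma-voom. Creld2, an ER stress-inducible protein of the lumen, had the highest change of them. It had 56.2, 59.5 and 62.6 CPM in naive and 68.4, 92.2 and 77.4 CPM in SOHU libraries, without overlap, and did not pass (log2 change 0.42, interval 0.09 to 0.74, edgeR adjusted p = 0.0826). Manf, an ER stress-induced secreted factor with neurotrophic activity, had a log2 change of 0.22 (edgeR adjusted p = 0.321). Of its 3524 exon bases, 14 are shared with Rbm15b and 146 with Dcaf1. Counted over the whole gene, Rbm15b and Dcaf1 had 71.4 and 41.1% as many reads as Manf. The BiP cochaperone genes Dnajb9, Dnajb11, Dnajc3 and Sdf2l1 had log2 changes between 0.05 and 0.17 with overlapping groups. Hyou1, an ER Hsp110, varied most among the SOHU libraries, with 6.52, 12.7 and 15.4 CPM against 11.6, 13.6 and 12.5 CPM in naive. Its change of -0.13 had an interval from -0.76 to 0.51, too wide to show a modest change in either direction.

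The sensors themselves were expressed at low to moderate levels, and none passed in edgeR (1 at an unadjusted p under 0.05), DESeq2 or limma-voom. Atf6, the membrane-bound transcription factor released by proteolysis, had 41.2, 43.0 and 36.8 CPM in naive and 30.9, 27.9 and 32.8 CPM in SOHU libraries. The groups did not overlap, and the log2 change was -0.40 (interval -0.72 to -0.09, edgeR adjusted p = 0.0839). Ern1, which encodes the kinase and nuclease IRE1, had 4.70, 5.63 and 7.43 CPM against 7.02, 11.7 and 5.98 CPM and overlapped (0.48, interval -0.19 to 1.14, edgeR adjusted p = 0.306). Eif2ak3, which encodes PERK, had 15.8, 14.9 and 12.7 CPM against 14.4, 13.3 and 16.1 CPM (0.0090, interval -0.38 to 0.40). Xbp1, whose mRNA IRE1 splices into the form that encodes the active factor, had 131, 137.8 and 125.2 CPM against 123.8, 109 and 114.5 CPM (-0.18, interval -0.45 to 0.09, edgeR adjusted p = 0.334). Gene counts do not separate spliced from unspliced Xbp1, and activity of the sensors is not read from the level of their mRNA.

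Genes of ER-associated degradation, which sends misfolded proteins back to the cytosol for the proteasome, did not pass in edgeR (1 at an unadjusted p under 0.05), DESeq2 or limma-voom. Edem1, which recognises misfolded glycoproteins, had 7.74, 10.2 and 7.47 CPM in naive and 12.3, 11.8 and 11.2 CPM in SOHU libraries (log2 change 0.47, interval 0.04 to 0.91, edgeR adjusted p = 0.132). Its SOHU libraries were all above the naive ones. Sel1l and Syvn1, which form the HRD1 ubiquitin ligase, and Herpud1, which associates with it, had log2 changes of -0.08, -0.02 and -0.03 with overlapping groups. Syvn1 shares 91 exon bases with Mrpl49, which had 20000 reads over all libraries beside 3684 for Syvn1.

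The 8 ER members with an ER stress element had log2 changes from -0.49 to 0.42: Calr and Hspa5 were at the lower end, Hsp90b1 followed, Pdia6, Syvn1, Canx and Dnajc3 lay between -0.03 and 0.16, and Creld2 was at the upper end. The 11 ER members with a promoter at hand and no match to this exact form ran from -0.18 (Xbp1) to 0.48 (Ern1). Some of them may hold another form of the element, as only this form was searched. The difference between these sets was not tested.

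Grouped by expression mode, 2 of 28 inducible members rose and 3 fell (median log2 change -0.03), while 0 of 8 constitutive members rose and 1 fell (median -0.23), beside 8.02% of all genes that rose and 5.93% that fell. At an unadjusted p under 0.05 no constitutive member was higher and 4 were lower in edgeR, beside 2897 higher and 2609 lower of all 17687 genes. DESeq2 called 3 of the 4 lower, and 1731 of all genes. In the cytosol the 10 inducible members included the risers Bag3 and Hspb1 and the fallers Hsp90aa1 and Hspb8, with a median of -0.15. Both constitutive cytosolic genes, Hspa8 and Hsp90ab1, had negative changes, and 1 passed. In the ER, 1 of 18 inducible members fell and 0 of 4 constitutive members passed, with medians of -0.0054 and 0.0044. The called inducible heat shock genes went in both directions.

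Summed over members, the cytosolic chaperones made up 0.590, 0.560 and 0.537% of counted reads in naive and 0.367, 0.374 and 0.427% in SOHU libraries. The ER members made up 0.256, 0.290 and 0.267% against 0.250, 0.252 and 0.259%. The cytosolic share was lower in every SOHU library, the ER ranges overlapped, and the mitochondrial pair went from 0.0283 to 0.0297% down to 0.0228 to 0.0258%. Ganglion cell marker reads were also lower in every SOHU library. So were reads of 7 amacrine cell markers (0.175 to 0.197% against 0.0942 to 0.136%), of which 3 fell. Those of 7 vascular markers were higher (0.0348 to 0.0409% against 0.0774 to 0.101%), and 3 of the 5 tested rose. Most of these vascular reads came from Kdr, with 7204, 7002 and 6095 in naive and 20588, 15728 and 13815 in SOHU libraries. The untested vascular markers had few reads: Pecam1 13, 13 and 5 against 9, 6 and 3, and Cdh5 0, 1 and 0 against 2, 0 and 1. Reads of 6 bipolar cell markers overlapped (0.0646 to 0.0948% against 0.0658 to 0.0905%), and 1 of these genes rose. The part of these shifts in the cytosolic sum was not tested.

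**Figure D4:**
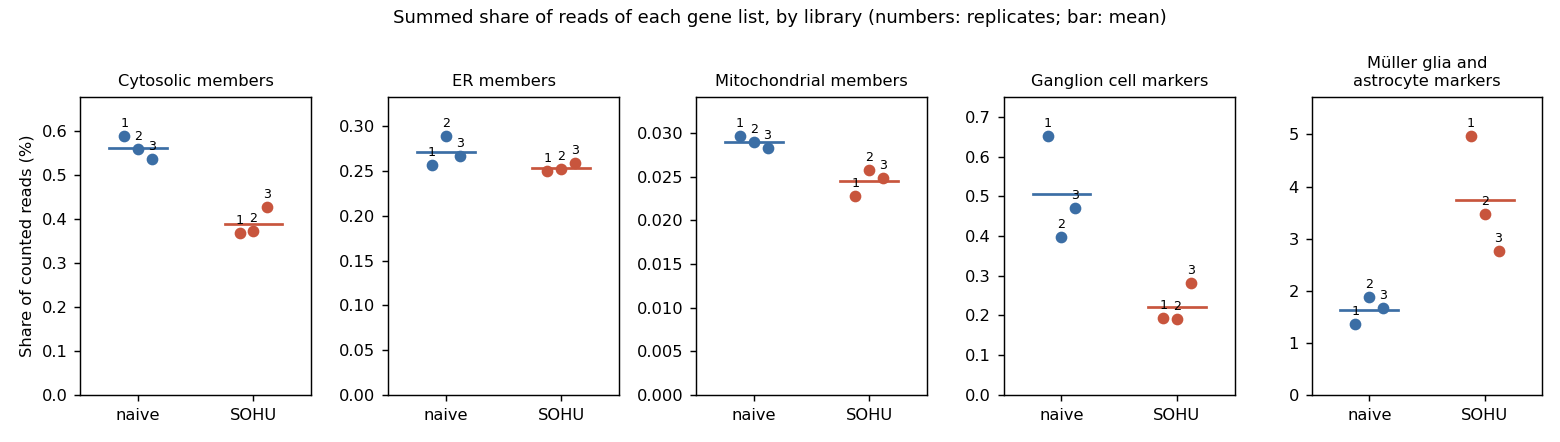
Percent of all counted reads taken by the cytosolic, ER and mitochondrial members and by the ganglion cell and the Müller glia and astrocyte markers, 1 point per library, numbered by replicate, with bars at the means of 3 libraries. The cytosolic share and the ganglion cell share are lower in all SOHU libraries, the glial share is higher, and the ER share overlaps between the groups.

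Further genes of the same machinery are given for context. They were listed by function, with earlier results of these data known. Of 29 cytosolic cochaperones and heat shock factors, 3 fell and 1 rose, with a median log2 change of -0.22, beside 5.93% of all genes that fell and 8.02% that rose. Those that fell serve the Hsp70 and Hsp90 cycle: Stip1, the adaptor between these machines (349.6, 302.7 and 294.2 CPM in naive, 191.9, 148.2 and 204.4 CPM in SOHU; -0.80, edgeR adjusted p = 0.0155), the kinase adaptor Cdc37 (-0.54, adjusted p = 0.0453) and the immunophilin Fkbp4 (-0.51, adjusted p = 0.0386). The one that rose was Cryab, a small heat shock protein also abundant in glia and lens, from 166.1, 221.5 and 218.6 CPM to 1028, 632.4 and 452.3 CPM (1.8, edgeR adjusted p = 0.00995). Of the 6 lens marker genes tried, 5 were tested and none passed, at an unadjusted p under 0.05 either or by DESeq2 or limma-voom. These 6 had few reads, 0.000493 to 0.00163% in naive and 0.000464 to 0.00197% in SOHU libraries. The interval of Cryaa, from -2.24 to 2.62, is too wide to show a modest change. The part of lens RNA in the level of Cryab was not tested. The transcription factor genes Hsf1 and Hsf2 had log2 changes of -0.11 (edgeR adjusted p = 0.666) and 0.62 (adjusted p = 0.147).

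The chaperonin TRiC and its partner prefoldin, which fold actin and tubulin, had negative changes in 14 of 14 genes, between -0.55 and -0.0029 with a median of -0.24, beside 8651 of all 17687 genes below 0. In 5 of the 14 the unadjusted p was under 0.05, beside 5506 of all 17687 genes, 2609 of them lower. Of the 14 genes 2 fell, beside 5.93% of all genes: Cct7 and Cct8 (-0.49 and -0.47, edgeR adjusted p of 0.0423 and 0.035). Of 8 further mitochondrial chaperones and proteases none passed in edgeR (2 at an unadjusted p under 0.05, 1 higher and 1 lower), DESeq2 or limma-voom. Of 26 further ER genes of folding and degradation, 4 rose (8.02% of all genes did) and 0 fell in edgeR, with a median of 0.09; none was lower at an unadjusted p under 0.05, nor by DESeq2 or limma-voom. Those that rose were Creb3l2, an ER-bound transcription factor of secretory genes (35.5, 39.8 and 35.5 CPM against 72.9, 72.3 and 62.0 CPM; 0.90, edgeR adjusted p = 0.00994), Derl2, a membrane component of degradation (0.88, adjusted p = 0.0194), Sdf2, a relative of Sdf2l1 (0.57, adjusted p = 0.0361), and Edem2, which trims glycans of misfolded glycoproteins (0.55, adjusted p = 0.0347). In Cryab and in all 4 of these ER genes SOHU replicate 1 was the highest library, at 1028 CPM for Cryab, 69.9 for Derl2, 224.8 for Sdf2, 66.8 for Edem2 and 72.9 for Creb3l2, as it was for the glial marker share, and the part of that in these changes was not tested.

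The calls depended on which libraries were in the fit, as they did for the whole table. Without SOHU replicate 3 all 6 called members kept their call, and 3896 of 18070 genes passed. Without SOHU replicate 1, 4 of the 6 did, and 2017 of 18163 genes passed: Hspb1 (edgeR adjusted p = 0.0547) and Hsp90aa1 (0.0603) missed the threshold, while Hspa5 (0.0426) and Creld2 (0.0388) passed it. Without naive replicate 2, where 887 of 18298 genes passed, Bag3 and Hspb8 passed, and Hspa8 (0.0514), Hspb1 (0.0899), Calr (0.116) and Hsp90aa1 (0.114) did not. Without naive replicate 1, 0 of 18198 genes passed in edgeR (3919 at an unadjusted p under 0.05), and without naive replicate 3, 0 of 18320 did (4251 unadjusted). Without SOHU replicate 2, 336 of 18126 did. In these last 3 omissions 0 of the 36 members passed in edgeR, with 10, 12 and 11 at an unadjusted p under 0.05, and no other tool was run on the omissions. The changes themselves kept their direction in every omission and ran from -1.07 to -0.77 for Hspa8, -1.03 to -0.67 for Hspb8, -0.55 to -0.42 for Calr, -0.49 to -0.44 for Hsp90aa1, 0.88 to 1.17 for Bag3 and 0.59 to 0.99 for Hspb1.

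Scaling to the ganglion cell markers instead of by TMM moved the median log2 change of all genes from 0.014 to 1.13, so that the sign of a change no longer separates genes. Set against that median, Bag3 and Hspb1 lay above it (2.14 and 1.93), and Hspa8, Hspb8, Calr and Hsp90aa1 lay below it (0.15, 0.25, 0.60 and 0.64). As the scaling shifts all genes by nearly the same amount, these sides follow from the main fit and are no further test of it.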

How the data were processed

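Raw read counts per gene were deposited by the authors for each library and as 1 table, and the 6 columns were equal in both. The tools featureCounts, HISAT2, HISAT, Trim Galore, MultiQC and bcl2fastq 2.17 and the build mm10 are named in the submitters' processing notes; for annotation release, strand setting and the counting of multi-mapped reads the entry is: not given in the sources used here. Of 55335 genes, 55154 were given a symbol from GENCODE M21. Counts were filtered with filterByExpr, scaled by TMM and tested with edgeR 4.0.16 in R 4.3.3 (quasi-likelihood, robust, group as the only term; Benjamini-Hochberg over 17687 genes, threshold 0.05); intervals use the standard error and the fit's degrees of freedom. DESeq2 1.42.0 and limma-voom (limma 3.58.1), other scalings, no filter, a replicate block and omission of each library were alternatives. Ratios within a library used exact permutation tests. Replicates of a group differed by more than counting noise (chi-square per degree of freedom 12.6 to 79). Each library had 21691354 reads or more. Exon overlaps were read from the files' coordinates, and near-identical copies (at least 95% over 200 bases) from GENCODE transcripts: copies of Hspa8, Hsp90aa1, Hspd1, Hspe1 and Hspb1 held 3.2, 2.02, 2.59, 5.61 and 0.93% as many reads as the gene. Members, classes and lists were chosen with earlier results of these data known. All members are named; values per library are given for those past the threshold, for a fixed set of paralogs and sensors, and, chosen after their values were seen, for Dnajb1, Creld2, Hyou1, Edem1, Stip1 and Creb3l2. The labels name no batch. Promoters of Manf, Hyou1, Hsp90ab1, Hspa8, Atf6 and Hsp90aa1 and a planned comparison of protein sequences were not analysed here.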

Additional observations from a re-analysis of the deposited data

How the results depend on the processing

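Scaling to the ganglion cell markers, each weighing the same, moved the median log2 change of all genes to 1.13 and called 12395 genes. Called members were 30 in all (median 1.08), 19 ER (median 1.12), 9 cytosolic (median 0.94), 24 inducible (median 1.08) and 6 constitutive (median 0.90). As this scaling lifts all genes together (12393 called higher and 2 lower), the sign it gives says nothing about single members; the values of the 22 members with a negative change under TMM became Hspa5 0.63, Hsp90b1 0.70, Hyou1 0.92, Calr 0.60, Canx 1.12, Pdia6 1.09, Atf6 0.70, Xbp1 0.93, Herpud1 1.08, Sel1l 1.02, Syvn1 1.07, Hspa8 0.15, Hspa1a 1.00, Hspa4l 0.89, Hsph1 1.09, Dnajb1 0.81, Hsp90aa1 0.64, Hsp90ab1 0.75, Chordc1 0.99, Hspb8 0.25, Hspd1 0.75 and Hspe1 1.05. DESeq2 called 3755 genes, 10 members, 3 ER members and 3 constitutive members. Upper quartile scaling and no filter each called 2 ER members, adding Hspa5, and gave -0.0096 and -0.0195 for Pdia3 and -0.0082 and -0.022 for Eif2ak3. In limma-voom Hspb1 missed the threshold (adjusted p = 0.0518), and RLE size factors changed no member's call. Same-numbered libraries correlated at 0.163, 0.251 and 0.00399 in their deviations from the group means, and not every library correlated best with its own number. Whether same-numbered libraries share more than a number cannot be told from these values. With a replicate block in edgeR 2070 genes, 4 members, 3 inducible and 0 ER members passed (5 ER members at an unadjusted p under 0.05). The other tools had no block.

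Leaving out each library in turn gave 0 to 3896 genes past the threshold, 0 to 6 members, 0 to 3 ER, 0 to 5 cytosolic, 0 to 5 inducible and 0 to 1 constitutive members. Median changes ran from -0.12 to -0.021 (all members), -0.067 to 0.071 (ER), -0.24 to -0.15 (cytosolic), -0.11 to 0.023 (inducible) and -0.27 to -0.17 (constitutive). Changes of both signs came from Dnajb9 (-0.041 to 0.12), Canx (-0.087 to 0.064), Pdia3 (-0.15 to 0.11), Hsph1 (-0.14 to 0.026), Pdia6 (-0.16 to 0.077), Syvn1 (-0.086 to 0.066), Eif2ak3 (-0.094 to 0.086), Hyou1 (-0.38 to 0.15), Dnajb11 (-0.086 to 0.19), Herpud1 (-0.15 to 0.097) and the ratio of Hsp90b1 to Hsp90ab1 (-0.15 to 0.063). The causes were not tested.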
